A study of Mus musculus with 12 samples.

Results

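The genes described here are 9 mouse genes that are used as markers of the epididymis, the duct that receives sperm from the testis: Crisp1, Adam7, Rnase9, Rnase10, Wfdc10, Spink8, Gpx5, Lcn9 and Osr1. They were chosen by their symbols, 9 of 20718 genes in the table, and the set was selected on levels that differed between these same 12 testis libraries, so their values, fold changes and intervals are given as a description and no comparison of these libraries is a test of them. Crisp1, Adam7, Rnase9 and Spink8 differed widely between libraries and Osr1 differed less widely, whereas Rnase10 and Wfdc10 differed by no more than 3.51-fold and Gpx5 and Lcn9 were at or near 0 counts in every library, so the 9 genes did not behave as 1 set.

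Testes of ICR mice (the labels write IRC mouse) were injected with lentivirus at 4 weeks of age and the mice were reared to 9 weeks, mated and then sampled, and 4 groups of 3 libraries were made. The F0_5251KD group received virus of the LV3 backbone with 3 short hairpin RNAs against the long non-coding RNA lncRNA5251, and F0_3NC received the negative control of that backbone. The F0_5251OV group received virus of the LV5 backbone with the full length of lncRNA5251, and F0_5NC received the empty LV5 vector. All 4 groups were thus injected, no uninjected group was analysed here, and the backbone cannot be told apart from anything else that differed between the LV3 and the LV5 mice. Whether the replicates of a group were different animals is not stated in the labels.

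The epididymis is a long coiled duct whose epithelium secretes proteins that coat, protect and mature the sperm. The secretion is arranged in segments along the duct, and much of it depends on androgen and on factors that reach the duct from the testis. Many of the secreted proteins come from families that lie as gene clusters, such as the cysteine-rich secretory proteins, the beta-defensins, the lipocalins, the ribonuclease A family and the protease inhibitors of the Wfdc, Spink and Spint families, and single members of such a cluster can be active in the testis while the next one is active in the duct. Osr1 is of another kind, a zinc finger transcription factor of the embryonic urogenital tract and of mesenchymal cells.

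Promoter windows of 300 bases, 250 before and 50 after the annotated start (RefSeq, GRCm38.p6), were at hand for 6 of the 9 genes. The windows of a gene that varied widely (Crisp1), of a neighbouring pair of which 1 varied more widely than the other (Rnase9 and Rnase10), and of a gene that stayed at 0 or 1 counts (Gpx5) are shown in the sense direction, with matches in capitals to TATAAA (the TATA box) and to AGAACA or its reverse complement TGTTCT (a half-site of the androgen receptor). The windows lie at chr17:40319158-40319457 on the minus strand for Crisp1, chr14:51041818-51042117 on the minus strand for Rnase9, chr14:51007501-51007800 on the plus strand for Rnase10, the first of its 2 annotated starts, and chr13:21292637-21292936 on the minus strand for Gpx5.
Crisp1: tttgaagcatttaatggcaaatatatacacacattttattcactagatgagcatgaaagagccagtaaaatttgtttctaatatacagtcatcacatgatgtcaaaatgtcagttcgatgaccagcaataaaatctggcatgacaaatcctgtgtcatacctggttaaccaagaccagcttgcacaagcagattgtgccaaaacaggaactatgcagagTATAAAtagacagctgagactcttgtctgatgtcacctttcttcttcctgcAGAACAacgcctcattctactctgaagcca
Rnase9: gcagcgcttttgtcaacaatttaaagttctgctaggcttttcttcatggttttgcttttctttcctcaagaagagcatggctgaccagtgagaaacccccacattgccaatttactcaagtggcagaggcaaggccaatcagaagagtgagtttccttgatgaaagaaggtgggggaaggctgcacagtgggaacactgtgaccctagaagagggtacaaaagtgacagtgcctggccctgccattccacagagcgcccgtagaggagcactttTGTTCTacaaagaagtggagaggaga
Rnase10: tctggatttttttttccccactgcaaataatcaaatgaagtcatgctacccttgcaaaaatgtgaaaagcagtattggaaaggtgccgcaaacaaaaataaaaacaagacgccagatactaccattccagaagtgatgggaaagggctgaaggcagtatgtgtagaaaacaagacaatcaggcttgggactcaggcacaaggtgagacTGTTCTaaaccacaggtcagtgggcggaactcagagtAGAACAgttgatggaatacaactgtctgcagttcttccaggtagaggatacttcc
Gpx5: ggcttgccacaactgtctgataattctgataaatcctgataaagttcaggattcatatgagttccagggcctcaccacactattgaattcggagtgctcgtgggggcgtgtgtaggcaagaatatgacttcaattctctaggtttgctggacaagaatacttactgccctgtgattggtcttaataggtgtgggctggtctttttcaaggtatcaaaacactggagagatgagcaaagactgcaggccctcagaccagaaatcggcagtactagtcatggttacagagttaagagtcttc

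The Crisp1 window held TATAAA from base -31 to -26 and AGAACA from base 20 to 25, with the start base counted as 0. The Rnase9 window held TGTTCT from base 24 to 29, the Rnase10 window shown held TGTTCT from base -42 to -37 and AGAACA from base -5 to 0, and the Gpx5 window held none of these letters. In the window of the other Rnase10 start, which overlaps the one shown, the same letters lie from base -220 to -215 and from base -183 to -178. Among the genes whose windows are not shown, Lcn9, with 0 to 2 counts, held AGAACA from base -45 to -40. The window of Wfdc10, a gene at 6.97 to 17.6 CPM, held none of these letters. Over all 32851 windows of the same length, searched on both strands, 13.6% held TATAAA and 19.0% held AGAACA. The androgen receptor half-site was thus found both in Rnase9, which had 0 to 53 counts, and in Rnase10, which had 25 to 88. A match describes the letters and is no evidence of binding.

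The 12 libraries were of nearly equal depth, with 15431383 to 16355720 estimated counts, so that 3 counts, taken as the floor, equalled 0.183 to 0.194 CPM (the count of a gene relative to the total of its library). Markers of male germ cells, led by Prm2, Tnp2 and Prm1, which encode the packaging proteins of sperm DNA, summed to between 13275 and 16825 CPM in every library. The target, lncRNA5251, is not a named row of the table, and its level is not given here.

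Crisp1 (gene ID 11571, chromosome 17, 40293758 to 40319207), a cysteine-rich protein that coats sperm in the epididymis, had the widest range. Its level was 0.319, 1.22 and 5.83 CPM in the 3 libraries of F0_3NC, 10.5, 91.9 and 90.0 CPM in F0_5NC, 0.130, 0.0645 and 0.0635 CPM in F0_5251KD, and 63.4, 44.7 and 0.188 CPM in F0_5251OV. The highest library held 1420 counts and the lowest 1 count, a ratio of 1448 in CPM. The F0_5NC libraries lay above all F0_3NC libraries, and F0_5251OV spanned nearly the whole range, since its replicate 3 had 3 counts while replicates 1 and 2 had 1015 and 692. The 3 F0_5251KD libraries held 2, 1 and 1 counts, at or under the floor.

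Adam7 (gene ID 11500, chromosome 14, 68497336 to 68533689), a membrane protein of the ADAM family that passes from the duct to sperm, had 1, 0 and 1 counts in F0_3NC, 9, 79 and 277 in F0_5NC, 0, 1 and 0 in F0_5251KD, and 169, 126 and 1 in F0_5251OV. Rnase9 (gene ID 328401, chromosome 14, 51038459 to 51041903), a secreted protein of the ribonuclease A family, had 0, 0 and 1 counts in F0_3NC, 1, 31 and 53 in F0_5NC, 1, 0 and 0 in F0_5251KD, and 31, 28 and 1 in F0_5251OV. Both genes were thus at or under the floor in all 6 libraries of the LV3 backbone and in replicate 3 of F0_5251OV. Both passed the filter on low counts through the LV5 groups.

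Spink8 (gene ID 78709, chromosome 9, 109812203 to 109826628), of a family of Kazal-type serine protease inhibitors, was at 0.446, 0.611 and 1.29 CPM in F0_3NC, 3.68, 16.3 and 12.9 CPM in F0_5NC, 0.389, 0.516 and 0.381 CPM in F0_5251KD, and 7.44, 8.71 and 1.88 CPM in F0_5251OV. In Spink8 the same libraries were high as in Crisp1, but every library held at least 6 counts. Its gene body overlaps that of Gm51691, and no step that keeps the strand is named. Reads from any stretch that both genes share may thus not be told apart.

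**Figure D1:**
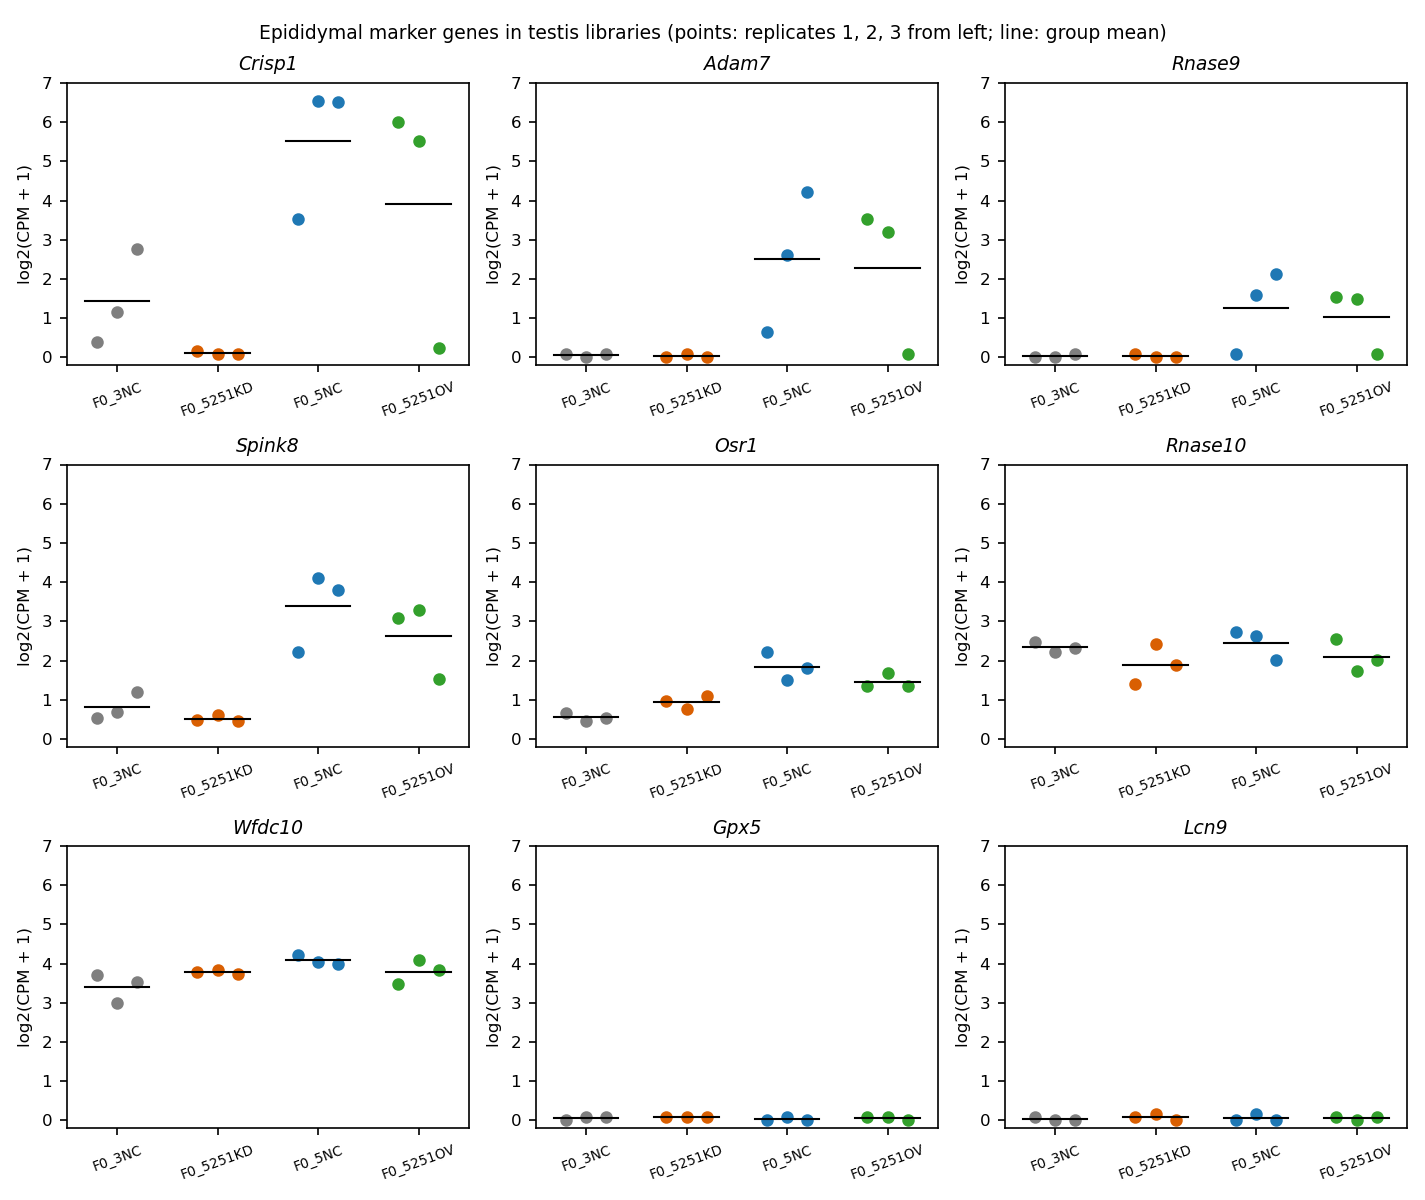
Level of each of the 9 genes, as log2(CPM + 1), in the 3 libraries of each group (points, replicates 1 to 3 from the left) with the mean of the 3 log values (line). In Crisp1, Adam7, Rnase9 and Spink8, replicates 2 and 3 of F0_5NC and replicates 1 and 2 of F0_5251OV stand above the other 8 libraries, Rnase10 and Wfdc10 stay within a narrower band, and Gpx5 and Lcn9 stay at the bottom.

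The 4 libraries with the highest level were the same in Crisp1, Adam7, Rnase9 and Spink8, namely replicates 2 and 3 of F0_5NC and replicates 1 and 2 of F0_5251OV. Of the 18018 genes with at least 20 counts over the 12 libraries, 0.372% (67 genes) had these 4 libraries on top. In each of the LV5 groups 1 library was thus unlike the other 2. In F0_5NC it was replicate 1, which held 163 Crisp1 counts, more than any library of the LV3 groups, whereas replicate 3 of F0_5251OV held fewer than any F0_3NC library.

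The order of the high libraries was not the same in each gene. Crisp1 was at 1420 and 1405 counts in replicates 2 and 3 of F0_5NC, while Adam7 was at 79 and 277 counts in the same libraries. Of the counts of Adam7 and Crisp1 together, Adam7 made up 5.23% in replicate 1 of F0_5NC (exact 95% binomial interval 2.42% to 9.70%), 5.27% in replicate 2 (4.19% to 6.53%) and 16.5% in replicate 3 (14.7% to 18.3%), and it made up 14.3% (12.3% to 16.4%) and 15.4% (13.0% to 18.1%) in replicates 1 and 2 of F0_5251OV. The interval of replicate 2 of F0_5NC lay below those of the other 3 high libraries, so Adam7 and Crisp1 were not present in 1 fixed ratio. These intervals cover counting error only.

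Spink8 went the other way in the library with the fewest Crisp1 counts of these 5. It made up 25.9% of the Spink8 and Crisp1 counts in replicate 1 of F0_5NC (20.3% to 32.2%) and between 10.5% and 16.3% in the 4 other libraries with at least 100 Crisp1 counts. Within F0_5251OV it made up 10.5% in replicate 1 (8.77% to 12.4%) and 16.3% in replicate 2 (13.9% to 19.0%), and these intervals did not overlap. Rnase9 made up between 0.610% and 3.89% of the Rnase9 and Crisp1 counts in the 5 libraries, and all of these intervals overlapped.

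**Figure D2:**
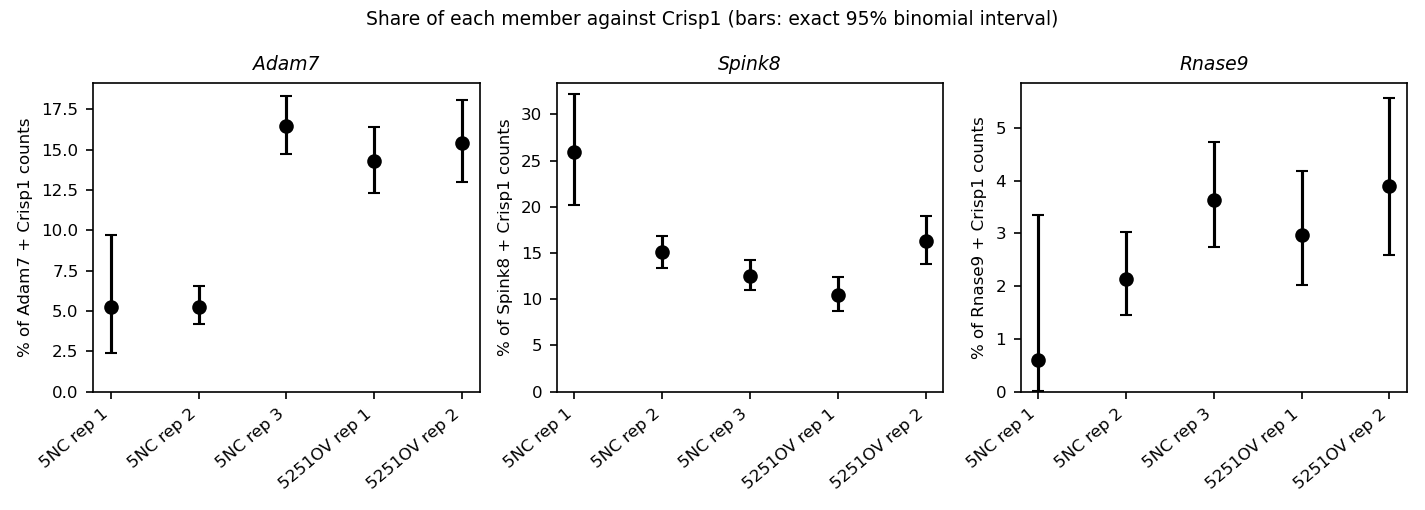
Counts of Adam7, Spink8 and Rnase9 as a percentage of their own counts plus those of Crisp1, in the 5 libraries with at least 100 Crisp1 counts (points, with exact 95% binomial intervals as bars). Adam7 stands at 5.23% and 5.27% in replicates 1 and 2 of F0_5NC and between 14.3% and 16.5% in the other 3 libraries.

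Osr1 (gene ID 23967, chromosome 12, 9574442 to 9581500) varied more between the backbones than within a group. It was at 0.574, 0.367 and 0.453 CPM in F0_3NC, 3.62, 1.81 and 2.499 CPM in F0_5NC, 0.972, 0.710 and 1.14 CPM in F0_5251KD, and 1.56, 2.19 and 1.57 CPM in F0_5251OV. No library of the LV5 groups overlapped with a library of the LV3 groups. Its highest library was replicate 1 of F0_5NC, in which Crisp1 was lowest within that group, and replicate 3 of F0_5251OV, with 3 Crisp1 counts, held as many Osr1 counts (25) as replicate 1, with 1015 Crisp1 counts.

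Rnase10 (gene ID 75019, chromosome 14, 51007751 to 51010761), a ribonuclease A family protein of the proximal duct, was at 4.52, 3.67 and 4.01 CPM in F0_3NC, 5.68, 5.18 and 3.01 CPM in F0_5NC, 1.62, 4.32 and 2.67 CPM in F0_5251KD, and 4.81, 2.32 and 3.07 CPM in F0_5251OV. All 4 groups overlapped. Wfdc10 (gene ID 629756, chromosome 2, 164656046 to 164657368), of a family of small proteins with a protease inhibitor fold, ranged from 6.97 CPM in replicate 2 of F0_3NC to 17.6 CPM in replicate 1 of F0_5NC, a ratio of 2.53. Its group means were 9.88 ± 2.62 CPM in F0_3NC, 16.0 ± 1.44 in F0_5NC, 12.7 ± 0.487 in F0_5251KD and 13.1 ± 2.94 in F0_5251OV (SD, n = 3). Wfdc10 overlaps Wfdc9, so its reads are open to the same doubt as those of Spink8.

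Gpx5 (gene ID 14780, chromosome 13, 21286429 to 21292727), the glutathione peroxidase that the head of the epididymis secretes, had 0 or 1 counts in each library and 8 in all. Lcn9 (gene ID 77704, chromosome 2, 25823088 to 25825546), a lipocalin of the proximal duct, had 0 to 2 counts in each library and 8 in all. Both were under the floor of 3 counts in every library, so the depth shows no difference between groups and no fold is given. The 4 libraries with the most Crisp1 held 1, 0, 1 and 1 Gpx5 counts.

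Per length, the highest mean level over the 12 libraries was that of Wfdc10 at 39.3 FPKM (fragments per length of transcript and per library total), followed by Crisp1 at 20.002, Spink8 at 8.26, Rnase10 at 2.59, Adam7 at 1.06, Osr1 at 0.775 and Rnase9 at 0.743, with Lcn9 at 0.0633 and Gpx5 at 0.0267. The order depended on the library, since Crisp1 ranged from 0.05 to 71.2 FPKM and Wfdc10 from 22.1 to 53.2 FPKM. Adam7, Osr1 and Rnase9 lay within the spread of each other over the libraries.

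The CPM of the 9 genes summed to 17.8 ± 4.75 in F0_3NC, 108 ± 57.5 in F0_5NC, 17.2 ± 1.62 in F0_5251KD and 68.0 ± 42.2 in F0_5251OV (SD, n = 3). The highest group mean was 6.27 times the lowest. Without Crisp1, the most abundant of them in CPM, the ratio was 2.87. The summed level was 41.8 CPM in replicate 1 of F0_5NC against 138 and 145 in replicates 2 and 3, and 20.1 CPM in replicate 3 of F0_5251OV against 99.96 and 83.8 in replicates 1 and 2, so the ranges of F0_5NC and F0_5251OV overlapped, and that of F0_5251OV reached down into the range of F0_3NC.

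A within-group range of at least 2 on the log2(CPM + 1) scale, which is 4-fold in CPM + 1, was counted. The count covered the 16205 genes whose mean reached 0.5 CPM, 7 of them members. In F0_5NC, Adam7, Crisp1 and Rnase9 had such a range, as did 0.543% of all genes. In F0_5251OV, Adam7 and Crisp1 had it, as did 0.228% of all genes. In F0_3NC it was Crisp1 alone, with 0.339% of all genes, and in F0_5251KD none of the 7, with 0.272% of all genes. This measure was chosen after the values had been seen, and it shrinks ranges at low levels. In CPM itself, Rnase9 ranged 30.9-fold in F0_5251OV, where its lowest library held 1 count. Spink8 ranged 4.43-fold in F0_5NC and 4.63-fold in F0_5251OV.

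Whether the 2 control viruses differed was asked in F0_3NC vs F0_5NC. Of the 9 genes 7 passed the filter on low counts and were part of a fit of all 16296 genes with edgeR's quasi-likelihood test, of which 0.331% were called. The 2 members past that threshold were Spink8 and Osr1, 6 of the 7 had an unadjusted p under 0.05, as did 1936 of all genes, and DESeq2 also called Adam7. Nothing is read from these counts, since the genes were chosen on levels in these libraries. Spink8 had a log2 fold change of -3.79 (SE 0.651, 95% interval -5.19 to -2.38) and Osr1 of -2.44 (SE 0.328, -3.15 to -1.73). Crisp1 had a larger difference of -4.71 with a wider interval (SE 1.22, -7.32 to -2.09), which became -6.35 without replicate 3 of F0_3NC, the source of 90 of the 115 counts of that group. Spink8 fell short of the threshold when any 1 of the 3 F0_3NC libraries or replicate 2 or 3 of F0_5NC was left out. Osr1 stayed past it without each of the 6 libraries of the 2 groups in turn, and Rnase9 passed it without replicate 1 of F0_5NC. These outcomes describe the fit and, like the counts, are no test of the members.

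Adam7 had 2 counts in F0_3NC and 365 in F0_5NC, a ratio of 186 with a counting interval of 51.2 to 1544, and Rnase9 had 1 and 85, a ratio of 86.7 with an interval of 15.2 to 3466. These intervals take no account of the spread between libraries, and both genes were in the fit only through the groups in which they were high. Of the 365 Adam7 counts 277 came from replicate 3 of F0_5NC, and without it the fitted log2 fold change went from -7.27 to -5.81. That of Rnase9 went from -5.97 to -7.85 without replicate 3 of F0_3NC, which held the only count of that group. Wfdc10 differed by -0.65 (SE 0.191, -1.07 to -0.24) and Rnase10 by -0.14 (SE 0.333, -0.86 to 0.58). The groups did not overlap in 5 of the 7 genes, namely Crisp1, Adam7, Spink8, Osr1 and Wfdc10, as in 16.7% of all genes.

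In F0_5251KD vs F0_3NC, which asked whether the knockdown altered the testis transcriptome, none of the 7 genes was past the threshold by edgeR or by DESeq2 and 1 had an unadjusted p under 0.05, while edgeR called 0.0245% of all genes and 773 of them had an unadjusted p under 0.05. Crisp1 had 4 counts in F0_5251KD and 115 in F0_3NC, of which 90 came from replicate 3, and its log2 fold change was -4.73 with an interval from -10.8 to 1.32, and -3.08 without that library. The mean of Osr1 was 0.465 ± 0.104 CPM in F0_3NC against 0.941 ± 0.218 CPM in F0_5251KD (SD, n = 3), a log2 fold change of 0.99 (SE 0.363, 0.21 to 1.78). Spink8 differed by -0.87 (-2.87 to 1.12), Rnase10 by -0.52 (-1.26 to 0.23) and Wfdc10 by 0.35 (-0.06 to 0.77), while Adam7 and Rnase9 were at or under the floor in both groups. The groups did not overlap in 3 of the 7 genes, Crisp1, Osr1 and Wfdc10, as in 11.2% of all genes.

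In F0_5251OV vs F0_5NC, the comparison for overexpression, none of the 7 genes was past the threshold by edgeR or by DESeq2 and 0 had an unadjusted p under 0.05, while edgeR called 0% of all genes and 1429 of them had an unadjusted p under 0.05. The log2 fold change was -0.83 (-2.87 to 1.22) for Crisp1, -0.31 (-2.29 to 1.67) for Adam7 and -0.50 (-2.32 to 1.31) for Rnase9. Such intervals are wide enough to hold a change of 2-fold in either direction. Without replicate 3 of F0_5NC the values of Adam7 and Rnase9 turned to 1.15 and 0.32, and that of Crisp1 lay between -1.51 and -0.24 when 1 library was left out. It was -0.85 (-1.97 to 0.26) for Spink8, -0.51 (-1.11 to 0.08) for Osr1, -0.39 (-1.12 to 0.34) for Rnase10 and -0.24 (-0.65 to 0.16) for Wfdc10. No gene of the 7 had groups that did not overlap, against 13.5% of all genes. The first of these comparisons shares its F0_3NC libraries with the second and its F0_5NC libraries with the third.

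**Figure D3:**
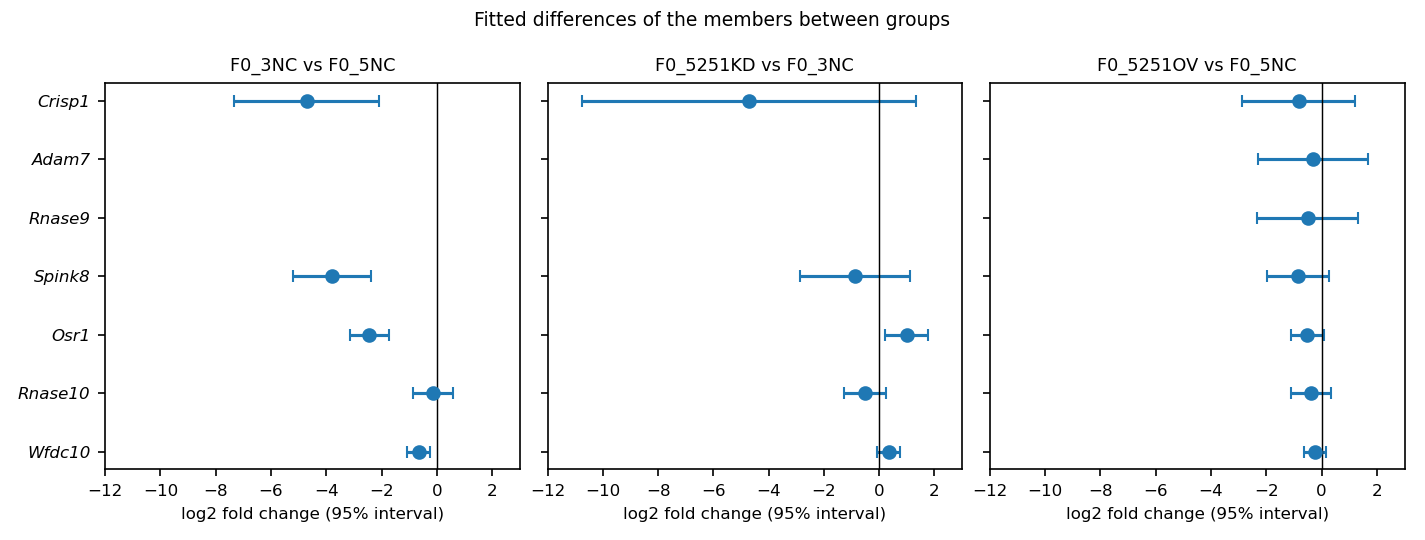
Fitted log2 fold changes (points) with 95% intervals (bars) of the genes that passed the filter and had more than 3 counts in both groups, in each of the 3 comparisons. In F0_3NC vs F0_5NC, Spink8 lies at -3.79 and Osr1 at -2.44, and in F0_5251OV vs F0_5NC every interval includes 0.

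Other genes known from the epididymis were taken as a list of 78, of which 68 were in the table, 3 without a count and 43 with at least 20 counts in all. Of these 43 genes, 16 (37.2%) had the same 4 highest libraries as Crisp1, against 0.372% of all genes. They were Cd52, a small surface glycoprotein of the distal duct and of lymphocytes, the serpin Serpina1f, the protease inhibitors Wfdc13, Wfdc15b, Wfdc16, Spink10 and Spint3, the beta-defensins Defb11, Defb22, Defb28, Defb37 and Defb43, and Bsph2, Crisp4, Pate2 and Rnase12. Crisp4, Wfdc15b, Defb37, Bsph2 and Spink10 had no count in any F0_5251KD library. Crisp4 and Defb37 had counts in the 4 highest libraries of Crisp1 only. For such genes the limit of 20 counts and the ranking rest on the same counts, and 22 list genes with 1 to 19 counts were left out. The share of 37.2% is thus a description. The list was drawn up with earlier results of these data known.

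Cd52 was at 0.701, 1.04 and 1.10 CPM in F0_3NC, 3.62, 19.4 and 21.0 CPM in F0_5NC, 1.30, 1.10 and 0.762 CPM in F0_5251KD, and 12.3, 11.9 and 1.003 CPM in F0_5251OV, with the same 4 libraries highest as in Spink8. Wfdc13 had 1, 0 and 3 counts in F0_3NC, 8, 63 and 129 in F0_5NC, 0, 3 and 2 in F0_5251KD, and 61, 60 and 0 in F0_5251OV, with replicate 3 of F0_5NC highest as in Adam7. Serpina1f was highest in replicate 2 of F0_5NC, at 12.4 CPM against 6.98 CPM in replicate 3, the reverse of Adam7 in those libraries.

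Most list genes with a high level did not share these libraries. The 10 most abundant were Cst8 (mean 171 CPM, 135 to 196), Sult1e1 (75.6, 42.0 to 111), Cst12 (52.4), Wfdc15a (47.0), Eppin (17.1), Defb36 (14.4, 9.72 to 26.5), Wfdc6a (8.87), Cd52 (6.26), Defb45 (4.05, 2.201 to 7.62) and Ros1 (4.01, 1.75 to 6.08), and of these Cd52 alone had the 4 highest libraries of Crisp1. Cst8 and Cst12 encode cystatins, Eppin a protease inhibitor on sperm, and Sult1e1 the estrogen sulfotransferase, which Leydig cells also express. Since these genes set its sum, the CPM summed over the 68 genes was between 370 and 488 in every library. Whether the reads of these abundant genes came from the duct or from the testis itself was not tested.

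**Figure D4:**
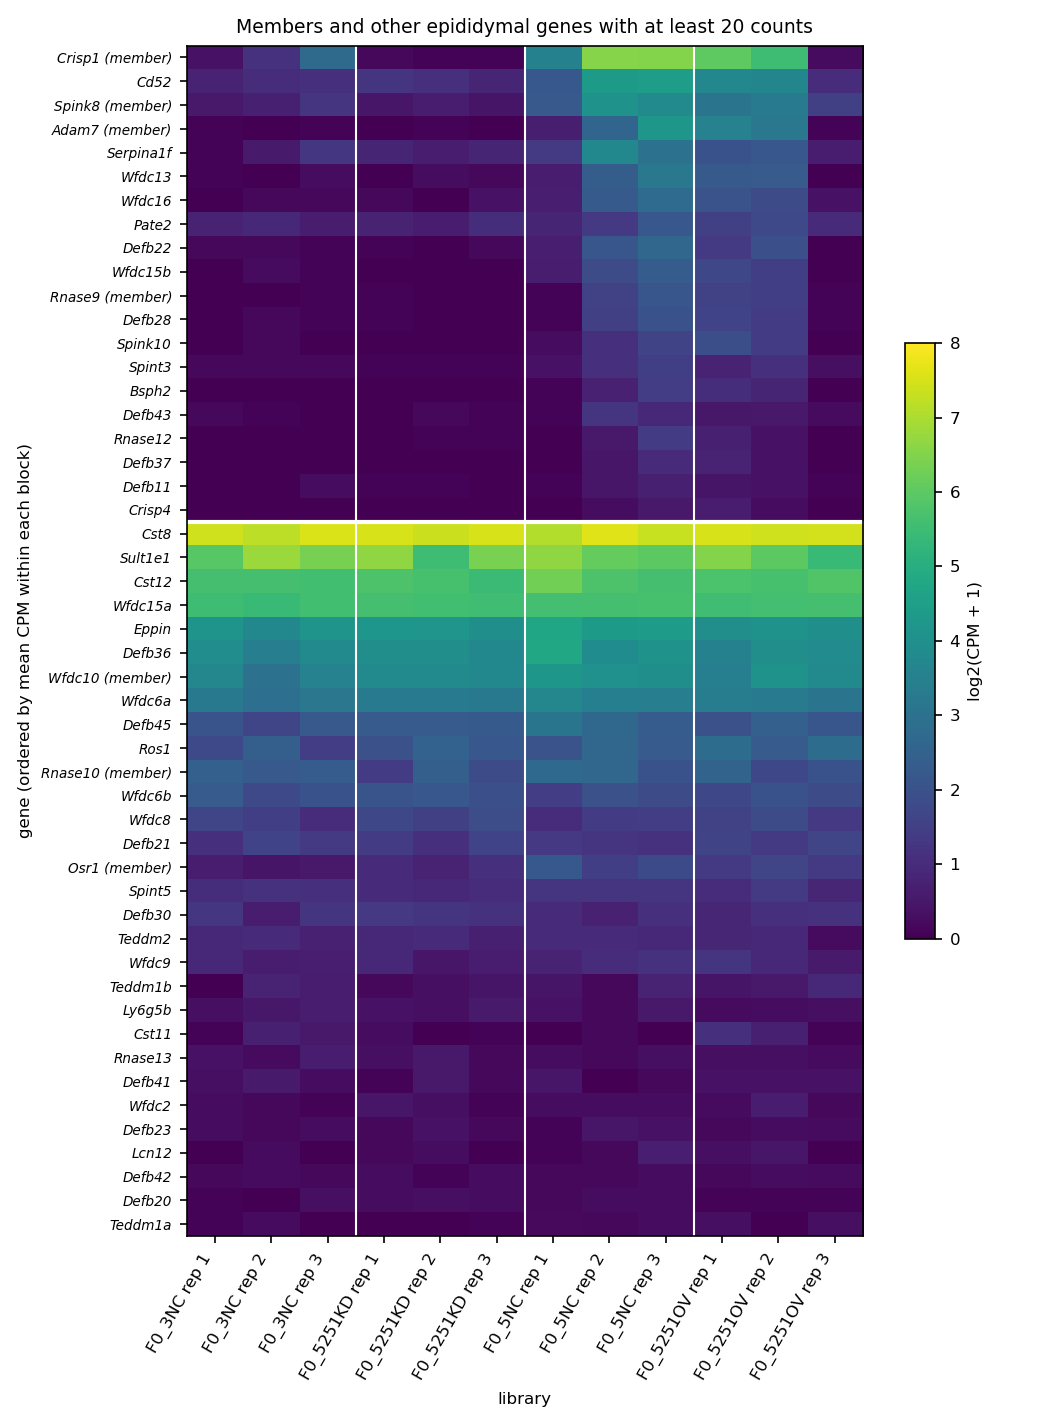
Level, as log2(CPM + 1), of the members and the other epididymal genes with at least 20 counts (rows) in the 12 libraries (columns). The 20 genes above the white line, 4 of them members, have the same 4 highest libraries as Crisp1, and the genes below it, with Cst8 at the top at a mean of 171 CPM, do not.

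Of the 68 genes, 28 passed the filter and were tested in the same fit. In F0_3NC vs F0_5NC edgeR called 0 of the 28 at an adjusted p under 0.05, while 15 had an unadjusted p under 0.05, against 1936 of all 16296. DESeq2 called 2, Cd52 and Wfdc16. The groups did not overlap in 14 of the 28, all lower in F0_3NC, as in 16.7% of all genes in either direction, and their median log2 fold change was -0.50, against 0.00049 over all genes. Among the 28, Wfdc13, Wfdc15b, Wfdc16, Defb22, Defb28, Spink10, Spint3 and Bsph2 were at or under the floor in every F0_3NC library. They passed the filter through the LV5 groups, so a lower level in F0_3NC was largely fixed in advance for them. The direction and the median are therefore given as a description. Cd52 had a log2 fold change of -3.93 (SE 0.815) with an adjusted p of 0.0765 by edgeR. Without replicate 1 of F0_5NC, 5 genes of the list were called, Cd52, Defb43, Serpina1f, Spint3 and Wfdc16. The filter was applied again there and passed 16464 genes, and Defb43 was not among the 28. In F0_5251KD vs F0_3NC edgeR called 0 of the 28, with 0 at an unadjusted p under 0.05, and in F0_5251OV vs F0_5NC it called 0, with 4 at an unadjusted p under 0.05. DESeq2 called 0 in both. Their median log2 fold change was 0.03 in the second comparison and -0.23 in the third.

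The level of neighbouring genes differed sharply. Rnase10 and Rnase9 lie 27.7 kb apart on chromosome 14, and Rnase10 had 25 to 88 counts in every library while Rnase9 had between 0 and 53. Rnase12, on the far side of Rnase9, had 7 and 26 counts in replicates 2 and 3 of F0_5NC, 10 and 5 in replicates 1 and 2 of F0_5251OV, and 0 or 1 elsewhere, whereas Rnase11, between them, had at most 4 counts in a library.

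On chromosome 2, Wfdc16 lies 17.2 kb before Wfdc10 and Wfdc13 lies 27.7 kb after it. Wfdc16 ranged from 0 to 6.02 CPM and Wfdc13 from 0 to 8.27 CPM, each with the 4 highest libraries of Crisp1, while Wfdc10 between them stayed within 6.97 to 17.6 CPM and Wfdc9 within 0.387 to 1.31 CPM. Next to Crisp1, Crisp3 had at most 2 counts in a library, and farther off on chromosome 17 Crisp2, the testis member of the family, was at 2049 to 2890 CPM. Next to Gpx5, Gpx6 was at 31.4 to 40.9 CPM.

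**Figure D5:**
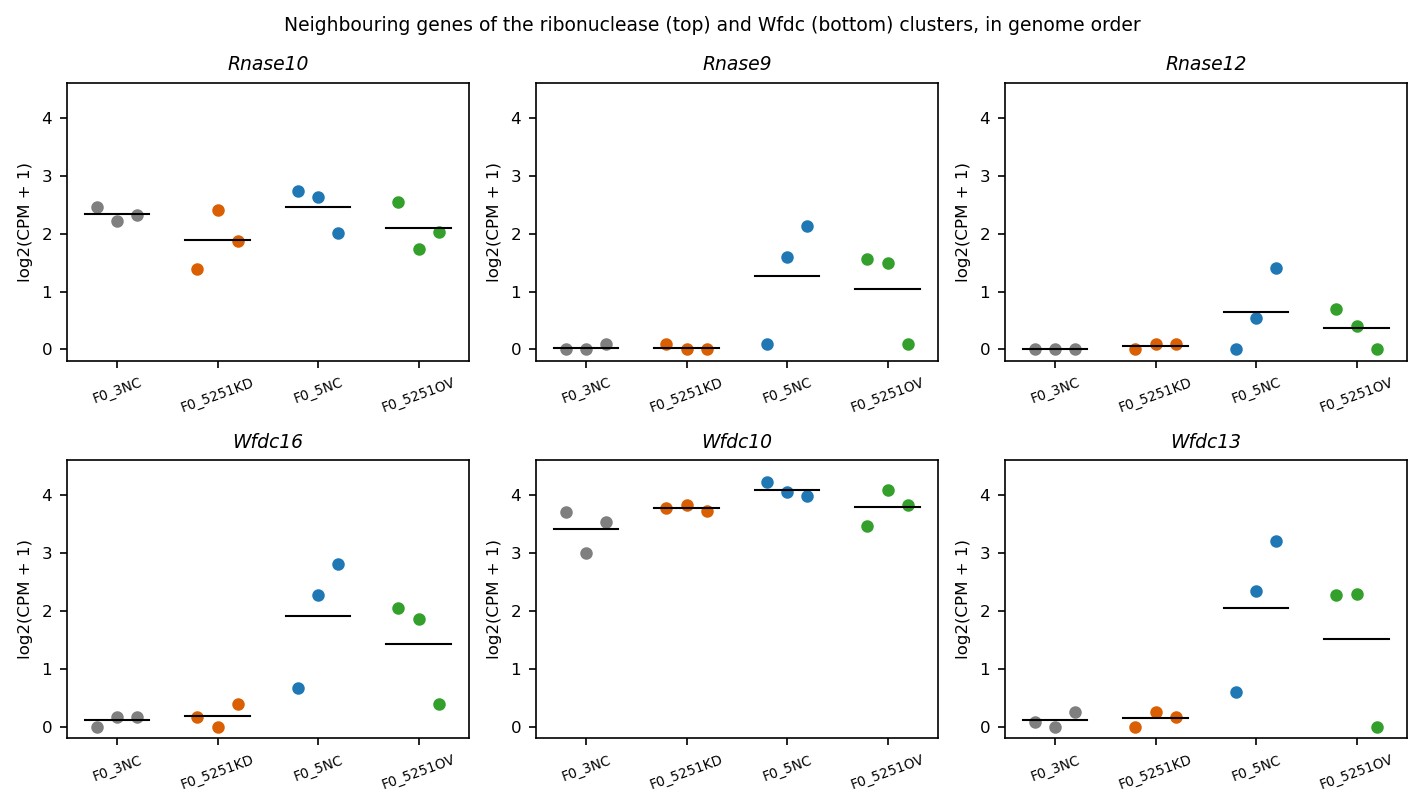
Level, as log2(CPM + 1), of 3 ribonuclease genes of chromosome 14 (top) and 3 Wfdc genes of chromosome 2 (bottom) in genome order, with points for replicates 1 to 3 from the left and a line at the mean of the log values. Rnase9, Rnase12, Wfdc16 and Wfdc13 rise above the bottom in replicates 2 and 3 of F0_5NC and replicates 1 and 2 of F0_5251OV, while Rnase10 and Wfdc10 stay within a band in all 12 libraries.

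Within the families, few genes had a range of at least 2 in log2(CPM + 1) inside any of the groups. Of all genes, between 0.228% and 0.543% had it in a given group. At low levels such a range takes more than a 4-fold difference in CPM. Of 32 Adam genes whose mean reached 0.5 CPM only Adam7 had one, and of 12 Wfdc genes only Wfdc13 and Wfdc16. Of 3 Rnase genes it was Rnase9, of 2 Crisp genes Crisp1, and none of 9 beta-defensin, 6 Gpx or 4 Spink genes had it, although Spink8 and Spink10 came near with ranges of 1.89 and 1.91, and Defb28 and Defb22 with 1.94 and 1.98.

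Over the 12 libraries, the 20 genes most like the members were found by the Pearson correlation between log2(CPM + 1) and the mean of the members' standardised levels, among genes whose mean reached 0.5 CPM. The most like were Cd52 (0.948), Serpina1f (0.912), Serpina16 (0.905), Wfdc15b (0.903), Wfdc13 (0.902) and Wfdc16 (0.897), and these coefficients carry no p, since the libraries fall into high and low ones. Of the 20 genes, 9 were on the epididymal list, the further ones being Defb22, Spint3, Defb28 and Spink10. By Spearman's rho the 20 most like held 4 of the list, and both rankings shared 10 genes. The mean gave all 9 members equal weight, among them Gpx5 and Lcn9 at 0 to 2 counts per library. A ranking by likeness to Crisp1 alone, chosen after seeing the data, shared 14 genes with the main one.

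Among the 11 genes off the list, Serpina16 had 0, 0 and 7 counts in F0_3NC, 13, 98 and 214 in F0_5NC, 2, 2 and 0 in F0_5251KD, and 119, 113 and 3 in F0_5251OV. Ces5a, which encodes the carboxylesterase also called cauxin, ranged from 0.978 to 15.6 CPM, Ly6f from 0 to 4.68 CPM, Abcb5 from 0 to 3.91 CPM, BC048679 from 0.129 to 1.36 CPM and Npy, the gene of neuropeptide Y, from 0 to 4.29 CPM. Gpx3, the secreted glutathione peroxidase of plasma and of several epithelia, was at 9.81, 11.4 and 10.1 CPM in F0_3NC, 18.9, 25.8 and 32.9 CPM in F0_5NC, 14.1, 10.3 and 11.0 CPM in F0_5251KD, and 21.0, 24.5 and 9.34 CPM in F0_5251OV, so the same 4 libraries were highest as in Crisp1, over a narrower range. Gm15455, Chd1l, Art3 and Rps13 varied by less than 3-fold. None of the 20 was called by edgeR in any of the 3 comparisons, and the smallest adjusted p was 0.0752 for Npy in F0_3NC vs F0_5NC.

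Genes of other tissues in or near the testis were followed by lists of their own, drawn up in the same way. Of 18 transcription factors of the duct 15 were tested, and edgeR called 0 in each of the 3 comparisons, with 3, 1 and 3 at an unadjusted p under 0.05 in F0_3NC vs F0_5NC, F0_5251KD vs F0_3NC and F0_5251OV vs F0_5NC. DESeq2 called Osr2 in the first of these. Osr2, the closest relative of Osr1, had 42, 43 and 56 counts in F0_3NC, 157, 60 and 120 in F0_5NC, 91, 81 and 91 in F0_5251KD, and 87, 103 and 81 in F0_5251OV, with its highest library in replicate 1 of F0_5NC as in Osr1. Etv5 (19.1 CPM), the most abundant of the list, and Emx2 (6.58 CPM) did not have the 4 highest libraries of Crisp1, and neither did any other gene of the 16 with at least 20 counts.

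Of 19 genes of duct epithelium 13 were tested, and edgeR called 0 in each comparison, while 1, 0 and 2 had an unadjusted p under 0.05. DESeq2 also called 0. Their summed level was between 152 and 193 CPM in every library, most of it from Aqp9 (73.4 CPM), a water and glycerol channel, Cftr (49.7 CPM), the chloride channel, and Atp6v1b1 (10.8 CPM), a proton pump subunit. Of 16 genes with at least 20 counts, Krt18 had the 4 highest libraries of Crisp1, at 6 to 33 counts, and the other 15 did not. Whether the epididymal reads came from cells of the duct was not tested. In whole tissue, fewer cells of a type and less RNA per cell cannot be told apart.

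Among 12 genes of the vas deferens and accessory glands, Akr1b7, the aldo-keto reductase of the vas deferens, had 182, 1219 and 15 counts in F0_5NC and 5 to 18 counts in the 9 libraries of the other groups. It was thus high in replicate 2 of F0_5NC, the library with the most Crisp1, and low in replicate 3, with 1405 Crisp1 counts. Spinkl, at 0 to 5 counts, was the only 1 of the 6 genes of this list with at least 20 counts in all that had the 4 highest libraries of Crisp1. Of this list 3 genes, among them Akr1b7 and Svs5 (1.17 CPM), were tested and edgeR called 0 in each comparison, with 1, 0 and 1 at an unadjusted p under 0.05, while DESeq2 called Akr1b7 in F0_3NC vs F0_5NC and in F0_5251OV vs F0_5NC.

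Of 7 adipocyte genes tested, led by Adipoq (12.2 CPM), Plin4 (3.35 CPM) and Fabp4 (3.32 CPM), edgeR called Plin1, the coat protein of fat droplets, in F0_3NC vs F0_5NC (log2 fold change -1.46, SE 0.248, adjusted p 0.0219) and none in the other 2 comparisons, with 1 in each at an unadjusted p under 0.05 and 0 called by DESeq2. Plin1 had 16, 11 and 12 counts in F0_3NC, 43, 30 and 36 in F0_5NC, 36, 31 and 36 in F0_5251KD, and 18, 19 and 14 in F0_5251OV. Adam7 had at most 1 count per library in F0_3NC and F0_5251KD, and a link between these 2 genes was not tested. The lists of mesothelium (led by Muc16, Lrrn4 and Gpm6a), smooth muscle (Actg2, Acta2 and Myh11), Sertoli cells (Amhr2, Cldn11 and Wt1), Leydig cells (Insl3, Cyp17a1 and Star) and germ cells held 36 tested genes. Of these edgeR called 0 in each comparison. In the 3 comparisons in turn, 9, 0 and 12 had an unadjusted p under 0.05, against 1936, 773 and 1429 of all 16296 genes. In F0_5251OV vs F0_5NC, 6 of the 12 were smooth muscle genes, and DESeq2 called Myh11. The groups did not overlap there in 9 of the 36 genes, 7 lower and 2 higher, as in 13.5% of all genes. Of the 8 smooth muscle genes 5 were among them, all lower. No gene of the adipocyte list or of these 5 lists had the 4 highest libraries of Crisp1.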

How the data were processed

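Testis RNA was measured in 4 groups of 3 libraries. The authors enriched mRNA with oligo(dT), primed cDNA with random hexamers and aligned Illumina reads with SOAPaligner (build mm10 per the labels). No step that keeps the strand is named, and the sources used here do not give the tool that made the values. Per gene and library, the table that the authors deposited holds an estimated count and an FPKM. Of the values in the count columns 12.0% were fractional, as when reads are shared among similar genes, but those of the 9 genes were whole (tolerance 1e-06). A further 18 columns of values match no sample and were not used.

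Counts were rounded, and CPM were taken over the column totals. The test was that of edgeR 4.0.16 (R 4.3.3, TMM, filterByExpr, quasi-likelihood F test, two-sided, Benjamini-Hochberg over all genes, threshold 0.05) in 1 fit of 12 libraries with 8 residual degrees of freedom. The functions were tested on simulated data. The standard error is the fold change over the square root of F. p-values measure the spread between libraries, which may be technical. DESeq2 1.42.0, limma 3.58.1 on log2(FPKM + 1) and log2(FPKM + 0.1), other scalings and filters, 2 groups alone, a replicate block and leaving out each library were alternatives. Shares have exact Clopper-Pearson intervals. The members and gene lists were chosen with earlier results of these data known. Named were all members, the called and the 10 most abundant genes of the epididymal list, the 3 most abundant and the called genes of other lists (some of these are not reported here), and the 20 genes most like the members. Genes described for having the 4 highest libraries of Crisp1, for lying next to a member or for belonging to its family were named after their values were seen. Positions and promoters come from RefSeq (GRCm38.p6), matched by gene ID.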

Additional observations from a re-analysis of the deposited data

How the results depend on the processing

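The count of members called in F0_3NC vs F0_5NC, which is no test of them, was 2. It became 1 by limma on log2(FPKM + 1), where Spink8 was lost. When 1 library of the 2 groups was left out, it was between 1 and 3. The count of other epididymal genes called there was 0 and became 2 by DESeq2, 1 in a fit of the 2 groups alone (Cd52), and between 0 and 5 when 1 library was left out, with 5 without replicate 1 of F0_5NC. The filter was applied again each time a library was left out, so the genes tested changed as well. In the other 2 comparisons both counts were 0 under every alternative run. No pairing by replicate number was seen, which does not exclude one. Deviations of same-numbered libraries of different groups correlated between -0.34 and 0.25 (18 pairs), and those of other numbers between -0.42 and 0.55 (36 pairs). With the replicate number as a block the counts stayed at 2 and 0. Of 20 genes most like the members 9 were on the epididymal list, against 4 by Spearman's rho and 9 by likeness to Crisp1 alone, an alternative chosen after seeing the data. The ratio of the highest to the lowest group mean of the summed level was 6.27, 3.404 in FPKM, 2.87 without the most abundant member, and 5.21 to 8.19 when 1 library was left out. Over all genes, DESeq2 called 121 rather than 54 in F0_3NC vs F0_5NC, 19 rather than 4 in F0_5251KD vs F0_3NC, and 27 rather than 0 in F0_5251OV vs F0_5NC. In the first of these 30 to 68 were called when 1 library was left out, and in F0_5251KD vs F0_3NC 0 by limma on log2(FPKM + 0.1) and 2 with the block. The cause was not tested. With 3 libraries per group and 1 library apart in each LV5 group, the intervals of Crisp1, Adam7 and Rnase9 in F0_5251OV vs F0_5NC held changes of 2-fold in both directions, and Gpx5 and Lcn9 lay under the floor of 3 counts.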

Other observations

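Osr1 and Crisp1 had different closest companions, although the 2 genes correlated at 0.610 with each other (Pearson, log2(CPM + 1)). The genes most like Osr1 over the 12 libraries were ranked after the values were seen, by the correlation of log2(CPM + 1). The first were Tril (0.947), Nr2f2 (0.931), Il16 (0.930), Txnip (0.915) and Cldn5 (0.913). None of these was among the 20 genes most like the members or the 20 most like Crisp1 alone. Nr2f2 encodes an orphan nuclear receptor of stromal cells and Cldn5 a tight junction protein of endothelium. Nr2f2 was at 4.40, 3.61 and 3.75 CPM in F0_3NC and 9.04, 5.502 and 8.33 CPM in F0_5NC. Tril was at 0.510, 0.183 and 0.129 CPM in F0_3NC and 1.87, 0.971 and 1.35 CPM in F0_5NC. In both genes replicate 1 of F0_5NC was the highest of these 6 libraries, as in Osr1 and unlike in Crisp1.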
